A study of Mus musculus with 24 samples.

Results

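The 10 genes described here write, read or maintain histone H3 lysine 9 (H3K9) methylation, the mark of silenced chromatin. They were chosen by symbol from the deposited mRNA table, which held 36096 genes, and their expected counts were summed per gene. All 10 passed the filter on low values and stood among the 15786 genes tested. The series measured RNA in the medial frontal cortex of C57BL/6J mice at postnatal day 28. Dnmt3l males and Dnmt3l females, labelled Dnmt3l;Emx1-cre, were offspring of Dnmt3l conditional knock-in and Emx1-cre mice. Control males and control females carried Emx1-cre alone. Each of the 4 groups held 3 samples. Emx1-cre, which all 12 samples carried, drives recombination in the excitatory neurons and glia of the dorsal forebrain lineage, so other cells in the tissue, such as interneurons, microglia and blood vessels, lie outside that lineage. Libraries are written DM1 to DM3 and DF1 to DF3 for Dnmt3l males and females, and CM1 to CM3 and CF1 to CF3 for control males and females.

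H3K9 methylation is laid down by separate enzymes. SETDB1 is brought to retroelements and imprinted loci by the corepressor TRIM28 and KRAB zinc finger proteins. EHMT1 and EHMT2 (GLP and G9a) act as a dimer, mainly on genes in euchromatin, and SUV39H1 and SUV39H2 trimethylate H3K9 at pericentric repeats. The HP1 proteins CBX1, CBX3 and CBX5 bind the methylated lysine, and ATRX is a remodeler that places histone H3.3 at heterochromatin with DAXX. DNMT3L, which has no catalytic activity of its own, is a partner of the de novo DNA methyltransferases and binds histone H3 tails that lack methylation at lysine 4. In the brain this system is known for silencing endogenous retroviruses in neural progenitors and for neurodevelopmental disorders caused by variants in EHMT1 and ATRX. No histone mark, DNA methylation or protein was measured in these samples; all values are RNA.

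In the GRCm38 coordinates of the deposited table, Setdb1 (ENSMUSG00000015697) lay on chromosome 3 at 95323525 to 95357202 on the minus strand. Ehmt1 (ENSMUSG00000036893) spanned 24789928 to 24919614 on chromosome 2 (minus), and Ehmt2 (ENSMUSG00000013787) spanned 34898469 to 34914052 on chromosome 17 (plus). Suv39h1 (ENSMUSG00000039231) lay on the X chromosome at 8061171 to 8074760 (minus) and Suv39h2 (ENSMUSG00000026646) on chromosome 2 at 3455815 to 3475031 (minus). Trim28 (ENSMUSG00000005566) was listed on chromosome 7 at 12999114 to 13031035 (plus). Of the HP1 genes, Cbx1 (ENSMUSG00000018666) lay on chromosome 11 at 96789127 to 96808640 (plus), Cbx3 (ENSMUSG00000029836) on chromosome 6 at 51470360 to 51483704 (plus) and Cbx5 (ENSMUSG00000009575) on chromosome 15 at 103191544 to 103239816 (minus). Atrx (ENSMUSG00000031229), the longest of the 10, spanned 105797615 to 105929403 on the X chromosome (minus).

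Promoter windows of 300 bases, 250 before and 50 after each annotated start, were taken from RefSeq (GRCm38.p6), and all 10 genes matched, with 14 windows. Windows of 3 genes are printed, because they belong to the writer with the largest fall, the reader with the largest fall and the writer with the largest rise, and capitals mark their CpG dinucleotides.
Suv39h2, chr2:3474937-3475236, minus strand, 33 CpG: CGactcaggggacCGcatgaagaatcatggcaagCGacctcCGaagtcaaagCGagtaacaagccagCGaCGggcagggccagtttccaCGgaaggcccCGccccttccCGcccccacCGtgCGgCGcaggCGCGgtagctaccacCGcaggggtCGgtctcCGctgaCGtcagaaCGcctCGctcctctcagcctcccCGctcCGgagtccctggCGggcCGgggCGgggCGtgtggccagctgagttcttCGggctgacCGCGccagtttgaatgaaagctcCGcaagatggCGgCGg
Cbx3, chr6:51470366-51470665, plus strand, 34 CpG: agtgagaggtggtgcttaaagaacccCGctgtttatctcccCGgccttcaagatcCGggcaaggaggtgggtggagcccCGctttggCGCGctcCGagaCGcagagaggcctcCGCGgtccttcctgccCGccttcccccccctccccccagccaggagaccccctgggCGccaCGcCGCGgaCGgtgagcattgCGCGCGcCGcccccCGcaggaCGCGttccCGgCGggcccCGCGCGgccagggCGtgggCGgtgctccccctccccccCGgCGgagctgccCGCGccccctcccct
Setdb1, chr3:95357153-95357452, minus strand, 15 CpG: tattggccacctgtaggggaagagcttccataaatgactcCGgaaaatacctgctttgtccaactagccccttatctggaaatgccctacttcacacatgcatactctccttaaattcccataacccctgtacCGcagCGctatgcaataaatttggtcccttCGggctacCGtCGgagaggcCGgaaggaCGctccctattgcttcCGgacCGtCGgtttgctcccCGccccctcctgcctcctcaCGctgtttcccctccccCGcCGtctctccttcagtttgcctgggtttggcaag
The 14 windows held between 8 and 40 CpG, with a median of 28.5, against a median of 7 over all 32851 RefSeq windows of that length. The GC box GGGCGG, searched on both strands, occurred in 12 of the 14 windows and in 35.7% of all windows. The CCAAT box (CCAAT, both strands) occurred in 4 windows, among them that of Setdb1, and in 37.4% of all windows. A site of one motif can share end letters with a site of the other, and each motif was counted on its own. Suv39h2 and Cbx3, which were lower in Dnmt3l, had 33 and 34 CpG in these windows, and Ehmt1, which was higher, also had 34. In CpG count the genes that were higher and those that were lower overlapped.

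The libraries held 22144970 to 26842726 expected counts in Dnmt3l and 27074837 to 32100277 in controls. Dnmt3l itself had 521 to 1179 counts in Dnmt3l libraries and 0 to 3 in controls, in keeping with the genotype labels of all 12 libraries. No check of the sex labels is given here. Mitochondrial genes took 3.73% to 7.30% of counts in Dnmt3l libraries and 2.63% to 3.59% in controls. DF1 stood apart from the other 5 Dnmt3l libraries: its mitochondrial share was the lowest of the 6, and its summed astrocyte, microglia and vessel markers were close to control levels. CM3, CF1 and CF2 held liver transcripts, with 86.7, 101 and 104 CPM over 14 liver genes, against 0.854 to 2.22 CPM in Dnmt3l libraries and 0.229 to 0.968 CPM in the other 3 controls. Gene-level calls below are therefore also given without DF1 and without those 3 controls. Transcripts were not fitted without those 3 controls, and within-library ratios and genes of similar pattern were described on all 12 libraries. The excitatory neuron markers that define the tissue were present throughout, at 6661 to 7928 CPM summed over 13 genes in Dnmt3l and 5413 to 6463 CPM in controls. The sum was higher in every Dnmt3l library, but of the 13 markers 2 were called as higher and 6 as lower. The labels do not say that samples of a group came from separate mice, and the spread behind each p-value may thus be technical in part.

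Levels are given as CPM (counts scaled to a common library size) obtained with edgeR's TMM method, and, where genes are compared with each other, as the deposited FPKM, which also divides by transcript length. By mean FPKM over 6 Dnmt3l libraries, Atrx was the highest of the 10 at 110, followed by Ehmt2 at 77.2, Trim28 at 67.8, Cbx5 at 63.7, Cbx3 at 42.5 and Ehmt1 at 38.5. Setdb1 followed at 20.4, Cbx1 at 11.7, Suv39h1 at 6.36 and Suv39h2 at 1.29 FPKM. In the 6 controls the order by FPKM was Atrx (111), Cbx5 (81.5), Trim28 (81.1), Ehmt2 (69.4), Cbx3 (68.3), Ehmt1 (30.7), Setdb1 (18.2), Cbx1 (13.0), Suv39h1 (8.69) and Suv39h2 (2.15). In Dnmt3l each of Ehmt2, Trim28, Cbx5, Cbx3 and Ehmt1 overlapped with its neighbour in this order, and in controls Cbx5, Trim28, Ehmt2 and Cbx3 did. The other neighbours did not overlap within a genotype. Suv39h2 was the least abundant of the 10 genes in both.

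Averaged over the sexes, 7 of the 10 genes differed between Dnmt3l and control cortex at an adjusted p below 0.05 in edgeR's quasi-likelihood test with Benjamini-Hochberg adjustment over all genes. In the same comparison 51.5% of all genes tested passed, and the count of 7 in 10 is to be read against that share. Setdb1 and Ehmt1 were higher (25.2% of all genes were higher), and Suv39h1, Suv39h2, Trim28, Cbx3 and Cbx5 were lower (26.4% of all genes were lower). Ehmt2, Cbx1 and Atrx did not pass. The median log2 change of the 10 genes was −0.18, beside 0.02 over all genes tested. By log2 change the 10 genes ranged from the 5.89 percentile of all genes (Suv39h2) to the 66.4 percentile (Setdb1). By CPM, every Dnmt3l library lay below every control in Cbx3, Suv39h1 and Trim28, which 6.83% of all genes tested also showed. No gene of the 10 had all Dnmt3l libraries above the controls, as 5.47% of all genes did. By FPKM the genotypes overlapped in Trim28.

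**Figure D1:**
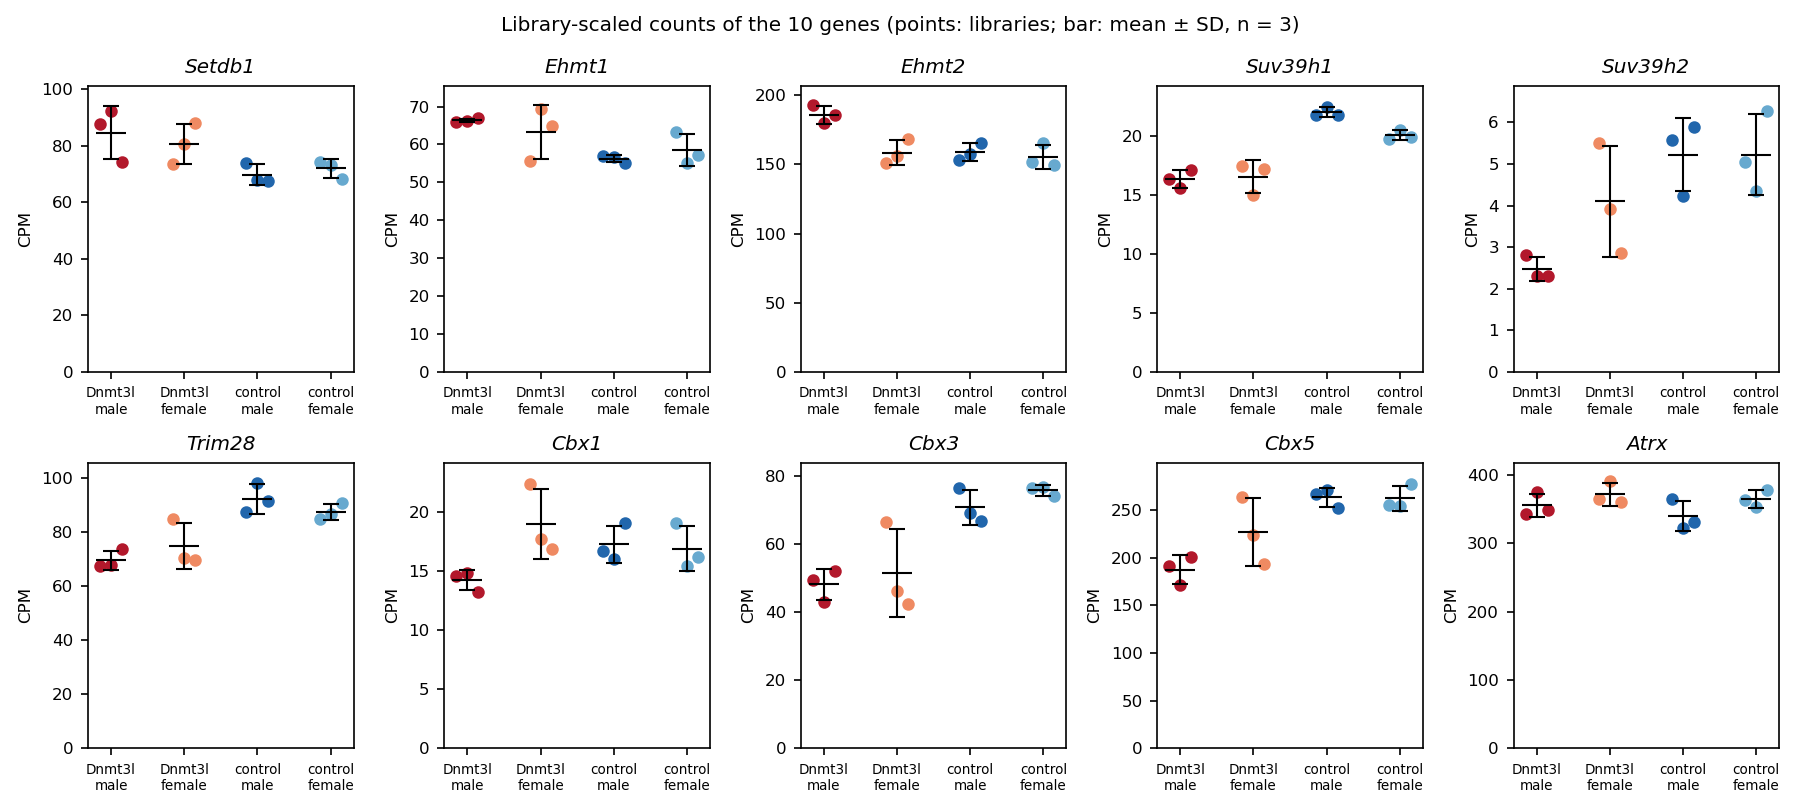
TMM-scaled CPM (vertical axis, starting at 0) of the 10 genes in Dnmt3l males, Dnmt3l females, control males and control females; points are libraries, and bars are the mean ± SD of 3. Suv39h1 sits between 15.02 and 17.5 CPM in the 6 Dnmt3l libraries and between 19.7 and 22.5 CPM in the 6 controls.

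Among the methyltransferases, Setdb1 and Ehmt1 were slightly higher in Dnmt3l cortex and both Suv39h genes were lower. Setdb1 had 87.6, 92.1 and 74.1 CPM in Dnmt3l males and 73.6, 80.5 and 87.9 CPM in Dnmt3l females, against 73.9, 67.8 and 67.6 CPM in control males and 74.3, 73.2 and 68.2 CPM in control females. The genotypes overlapped: DM3 and DF1 lay within the control range and the other 4 Dnmt3l libraries above it. The log2 change was 0.22 ± 0.07 (SE; adjusted p = 0.0191), a 1.17-fold rise, and it missed the threshold without DM2, CM2, CM3 or CF3 (adjusted p up to 0.0626). Setdb1 shares its locus with Cers2, a ceramide synthase gene on the other strand that was also higher (log2 change 0.40, adjusted p = 0.0146), and no source used here says whether the authors' counting kept the strands apart.

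Ehmt1 had 66.0, 66.1 and 66.9 CPM in Dnmt3l males and 55.6, 69.4 and 64.9 CPM in Dnmt3l females, against 56.9, 56.7 and 55.1 CPM in control males and 63.3, 55.2 and 57.3 CPM in control females. DF1 was the only Dnmt3l library below the highest control, CF1. The rise was 0.18 ± 0.07 on the log2 scale (adjusted p = 0.0410, 1.13-fold), and it missed the threshold in 10 of the 12 fits that left out 1 library, all but those without DF1 or CF1, with adjusted p up to 0.137. Its partner Ehmt2 averaged 172 ± 16.7 CPM in Dnmt3l and 157 ± 7.04 CPM in controls (SD, n = 6 each). Its log2 change of 0.13 ± 0.06 did not pass (adjusted p = 0.0786; 95% interval 0.0033 to 0.25). It was called as higher with upper-quartile scaling (adjusted p = 0.0244), a filter at 2 FPKM (0.0377) and DESeq2's Wald test (0.0415), and without DF1. The ratio of Ehmt1 to Ehmt2 CPM within a library, which does not depend on the scaling, was 0.343 to 0.446 in Dnmt3l and 0.332 to 0.417 in controls, and the genotypes overlapped.

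Setdb1 and Ehmt1 were also not called without the 3 controls with liver transcripts, in a fit with fewer controls. Without CM3, CF1 and CF2 the log2 change of Setdb1 was 0.23 ± 0.11 with an adjusted p of 0.133. That of Ehmt1 was 0.16 ± 0.10 with an adjusted p of 0.228. The estimates were close to those from all 12 libraries, and the SE was larger. Whether the liver transcripts or the smaller number of controls lost the calls was not tested. In the same fit 28.4% of all genes were called. With limma on log2(FPKM + 0.1) Setdb1 gave 0.16 (adjusted p = 0.135), while Ehmt1 was called as higher. With no filter on low values Ehmt1 missed the threshold (adjusted p = 0.103).

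Suv39h1 had 16.4, 15.7 and 17.2 CPM in Dnmt3l males and 17.5, 15.02 and 17.3 CPM in Dnmt3l females, against 21.8, 22.5 and 21.8 CPM in control males and 19.7, 20.6 and 20.0 CPM in control females. All 6 Dnmt3l libraries, DF1 included, lay below all 6 controls. The log2 change was −0.35 ± 0.07 (adjusted p = 0.00128), which is 0.784 of the control level. Its paralog Suv39h2 had 2.82, 2.30 and 2.30 CPM in Dnmt3l males and 5.51, 3.92 and 2.86 CPM in Dnmt3l females, against 5.57, 4.22 and 5.89 CPM in control males and 5.05, 4.35 and 6.28 CPM in control females. Here 5 of the 6 Dnmt3l libraries lay below every control, and DF1 lay inside the control range. The log2 change of Suv39h2 was −0.71 ± 0.17 (adjusted p = 0.00453), the largest of the 10, from 1415 counts over all 12 libraries. Dclre1c, a DNA repair nuclease gene with 5734 counts, overlaps the locus on the other strand and was higher in Dnmt3l (log2 change 0.41, adjusted p = 0.00396). The 2 overlapping genes thus differed in opposite directions.

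Trim28, the corepressor that recruits SETDB1, had 67.3, 67.7 and 73.6 CPM in Dnmt3l males and 84.7, 70.3 and 69.5 CPM in Dnmt3l females, against 87.2, 98.0 and 91.4 CPM in control males and 84.8, 86.5 and 90.7 CPM in control females. In CPM the genotypes did not overlap, although DF1 lay only just below CF1. In FPKM they did, with 57.8 to 78.3 in Dnmt3l and 65.7 to 89.8 in controls. The log2 change was −0.32 ± 0.07 (adjusted p = 0.00205). With limma on log2(FPKM + 0.1) it was −0.26 and missed the threshold (adjusted p = 0.0515). Setdb1 and its recruiter therefore differed in opposite directions: the within-library ratio of Setdb1 to Trim28 CPM was 1.30, 1.36 and 1.01 in Dnmt3l males and 0.870, 1.145 and 1.27 in Dnmt3l females, against 0.847, 0.691 and 0.740 in control males and 0.877, 0.847 and 0.752 in control females. DF1 was the only Dnmt3l library within the control range of this ratio. Zbtb45, a zinc finger gene that overlaps the listed Trim28 span on the other strand, had 8049 counts against 26527 for Trim28 and did not pass (log2 change −0.11, adjusted p = 0.275).

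Of the 3 HP1 genes, Cbx3 and Cbx5 were called as lower in Dnmt3l under every setting run, averaged over sexes, and Cbx1 was called under none. Cbx3 had 49.4, 43.0 and 51.9 CPM in Dnmt3l males and 66.3, 46.1 and 42.3 CPM in Dnmt3l females, against 76.4, 68.9 and 66.6 CPM in control males and 76.3, 76.7 and 73.9 CPM in control females. No Dnmt3l library reached the lowest control, CM3, and DF1 came closest to it. The log2 change was −0.55 ± 0.10 (adjusted p = 0.000896). Cbx3 has 8 named pseudogenes in the gene name table, all listed in the mRNA table, of which 1 passed the filter. No source used here says how the authors' counting divided reads between such copies, so the level of Cbx3 carries that uncertainty.

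Cbx5 had 191, 171 and 200.1 CPM in Dnmt3l males and 264, 224 and 193 CPM in Dnmt3l females, against 266, 271 and 252 CPM in control males and 255, 254 and 277 CPM in control females. DF1 lay within the controls and the other 5 Dnmt3l libraries below them. The log2 change was −0.35 ± 0.08 (adjusted p = 0.00255). Cbx1, the HP1 gene with the lowest FPKM, averaged 16.6 ± 3.25 CPM in Dnmt3l and 17.1 ± 1.58 CPM in controls (SD, n = 6 each), and its log2 change of −0.05 ± 0.09 did not pass (adjusted p = 0.652; 95% interval −0.26 to 0.15). Within libraries, the ratio of Cbx1 to Cbx3 CPM was 0.256 to 0.400 in Dnmt3l and 0.201 to 0.286 in controls, and that of Cbx1 to Cbx5 was 0.0663 to 0.0877 in Dnmt3l and 0.0585 to 0.0757 in controls. In each ratio 5 of the 6 Dnmt3l libraries, all but DM3, lay above every control.

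Atrx, the remodeler, had 343 to 391 CPM in Dnmt3l libraries and 322 to 378 CPM in controls. The ranges overlapped, and the log2 change of 0.05 ± 0.06 did not pass (adjusted p = 0.522; 95% interval −0.08 to 0.17). Its sign turned with limma on FPKM and without the 3 controls with liver transcripts (−0.01 in each).

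**Figure D2:**
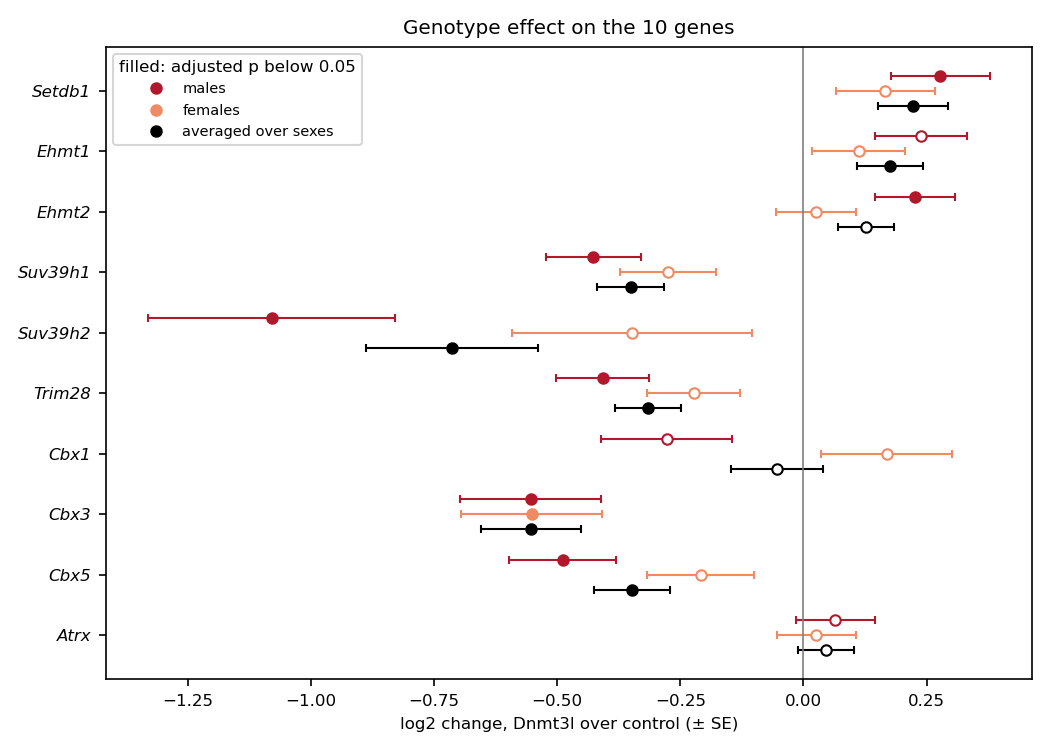
Log2 change, Dnmt3l over control, with SE bars, from edgeR for males, females and the average over sexes; filled points have an adjusted p below 0.05. Cbx3 is filled in all 3 comparisons, at −0.55 in males and −0.55 in females, whereas Suv39h2 lies at −1.08 in males and −0.35 in females.

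Within males 7 of the 10 genes were called, beside 43.1% of all genes tested: 2 were higher (20.4% of all genes) and 5 lower (22.7%). Ehmt2 was among them (log2 change 0.23 ± 0.08, adjusted p = 0.0370) and Ehmt1 was not (0.24 ± 0.09, adjusted p = 0.0552). Neither of the male rises, those of Setdb1 and Ehmt2, was called with no filter, without CM3, CF1 and CF2 or in 8 of the 12 fits that left out 1 library. Setdb1 was higher in males by 0.28 ± 0.10, and Suv39h2 had its largest fall there, at −1.08 ± 0.25 (adjusted p = 0.00499). Suv39h1 fell by 0.43, Trim28 by 0.41, Cbx3 by 0.55 and Cbx5 by 0.49 on the log2 scale in males. Limma on log2(FPKM + 0.1) called 6 of the 10 in males, 1 higher and 5 lower, beside 33.8% of all genes. With it Setdb1 (adjusted p = 0.212), Ehmt2 (0.0537) and Trim28 (0.0784) missed the threshold in males. Ehmt1 (0.0388, higher) and Cbx1 (0.0470, lower) were called instead. In edgeR's fit only Cbx3 was called within females, at −0.55 ± 0.14 (adjusted p = 0.0398), beside 9.1% of all genes (4.73% higher, 4.38% lower). The female estimates of Suv39h1 (−0.28), Suv39h2 (−0.35), Trim28 (−0.22) and Cbx5 (−0.21) did not pass.

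The count in females changed most with DF1. Without it, 5 of the 10 genes were called as lower in females (Suv39h1, Suv39h2, Trim28, Cbx3 and Cbx5), beside 47.4% of all genes. Without any other single library the count in females was 0, beside 0.0447% to 2.97% of all genes. DESeq2 called 2 in females, beside 23.6% of the 13642 genes to which it gave an adjusted p. Limma called 0 on log2(FPKM + 0.1), beside 2.15% of all genes, and 0 on log2(FPKM + 1), beside 2.38%. Averaged over sexes without DF1, 8 of the 10 were called, with Ehmt2 added as higher (0.13, adjusted p = 0.0272), beside 63.1% of all genes. In males 9 of the 10 were then called, beside 53.6% of all genes. Without the 3 controls with liver transcripts, the same 5 falls were called in the average over sexes, no gene of the 10 was called as higher, and none was called in females, beside 0.0129% of all genes. The test of the male effect minus the female effect called 0 of the 10 genes and 0 of all 15786 (0% of genes tested; edgeR's adjusted p for the 10 ran from 0.679 to 0.999). DESeq2 and limma also called 0 of the 10 in that test. At an unadjusted p below 0.05 edgeR picked Cbx1 alone of the 10, and the share of all genes at that unadjusted level was not counted. In controls, female over male, 0 of the 10 passed in edgeR, beside 0.0253% of all genes, and 0 passed in DESeq2 or limma. In that comparison 0 of the 10 had an unadjusted p below 0.05 in edgeR, a level at which all genes were not counted. The X-linked Suv39h1 differed there by −0.13 ± 0.10 and Atrx by 0.10 ± 0.08 on the log2 scale.

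**Figure D3:**
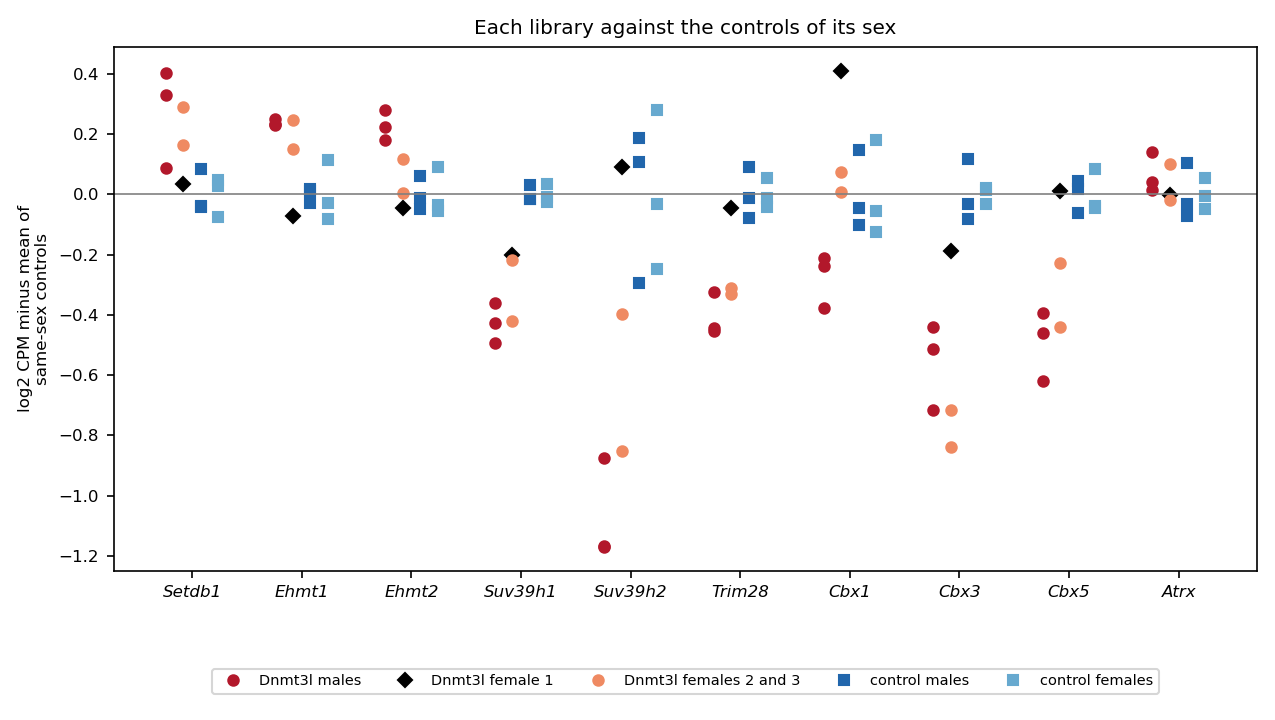
Log2 CPM of each library minus the mean of the controls of its sex, for the 10 genes; circles are Dnmt3l libraries, the black diamond is Dnmt3l female 1 (DF1) and squares are controls. For Suv39h2 the other 5 Dnmt3l libraries lie between −1.17 and −0.40 and DF1 at 0.09.

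Set against the controls of its sex, DF1 differed by −0.20 for Suv39h1 and −0.19 for Cbx3 on the log2 scale, and by −0.04 for Trim28 and 0.01 for Cbx5. The other 5 Dnmt3l libraries lay between −0.49 and −0.22 for Suv39h1, −0.84 and −0.44 for Cbx3, −0.45 and −0.31 for Trim28 and −0.62 and −0.23 for Cbx5. DF1 also had 1179 counts of Dnmt3l RNA, the most of the 6 libraries. Summed markers of microglia, astrocytes, vessels, oligodendrocyte precursors and dividing cells lay above every control in each of the other 5 Dnmt3l libraries, and in DF1 lay at or near the control range. Microglia markers (10 genes, 9 called as higher) summed to 473 to 585 CPM in the 5 other Dnmt3l libraries, 297 CPM in DF1 and 269 to 307 CPM in controls. Astrocyte markers (7 of 8 called as higher) summed to 11280 to 13759 CPM in those 5 libraries, 7440 CPM in DF1 and 6648 to 7244 CPM in controls. All 10 vessel markers were called as higher, with sums of 602 to 729 CPM in those 5 libraries, 371 CPM in DF1 and 332 to 365 CPM in controls. Oligodendrocyte precursor markers (4 of 5 called as higher) summed to 463 to 532 CPM in those 5 libraries, 239 CPM in DF1 and 236 to 313 CPM in controls. Markers of dividing cells (7 of 10 tested, 1 called as higher and 1 as lower) summed to 19.9 to 24.2 CPM in those 5 libraries, 11.0 CPM in DF1 and 13.0 to 17.9 CPM in controls. Other lists were not split in this way. Oligodendrocyte markers (4 of 7 called as higher, 1 as lower) overlapped, with 6185 to 10633 CPM in those 5 libraries, 3390 CPM in DF1 and 3503 to 6484 CPM in controls. Interneuron markers (4 of 10 called as higher, 5 as lower) also overlapped, with 867 to 1017 CPM in those 5 libraries, 806 CPM in DF1 and 889 to 980 CPM in controls. Red blood cell, choroid plexus and striatum markers overlapped between the genotypes too, with 4 of 5 red blood cell, 1 of 6 choroid plexus and 2 of 7 striatum markers called as lower. Immediate early genes, of which 12 of 15 were called as lower, summed to 1975 CPM in DF1 and 488 to 1216 CPM in the other Dnmt3l libraries, against 1043 to 1721 CPM in controls. The part of these cell type and activity markers in the results for the 10 genes was not tested. In bulk tissue, fewer cells of a type and less RNA per cell cannot be told apart.

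The genes whose levels followed a member most closely were described by Pearson's r of log2 CPM over the 12 libraries, as a description, since the genes of a library share its depth and tissue makeup. For Setdb1, the member with the largest rise, these were Ildr2 (r = 0.961), Cmah (r = 0.953) and Opcml (r = 0.944), a neuronal cell adhesion gene. For Suv39h2, the member with the largest fall, they were Togaram1 (r = 0.980), Stk4 (r = 0.971), a Hippo pathway kinase gene, and Rcor1 (r = 0.970), which encodes the CoREST corepressor that works with the demethylase KDM1A.

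At the transcript level, 79 of the 101 listed transcripts of the 10 genes passed the filter; 10 of them were called in edgeR's test, 2 higher and 8 lower, beside 14% of all 54587 transcripts tested (4.78% higher, 9.19% lower). TMM factors computed on transcripts centre them elsewhere than those of the gene fit: the median log2 change of all transcripts was 0.07 with the transcript factors and 0.20 with the gene factors. With the gene factors, added as an alternative after the data had been seen, 10 transcripts were also called, 5 higher and 5 lower. The share of all transcripts called with the gene factors, in either direction, was not counted. Of the 8 falls, 7 were of transcripts of Cbx3, Cbx5, Trim28 and Suv39h1 with at least 10% of the counts of their gene, and the other was of a minor Atrx transcript. For Cbx3 they were ENSMUST00000094623, with 41.9% of the gene's counts (log2 change −0.87 ± 0.16, adjusted p = 0.00893), and ENSMUST00000114446, with 36.9% (−0.92 ± 0.27, adjusted p = 0.0465). Both Cbx5 transcripts above 10% of the gene fell, ENSMUST00000118152 by 0.51 and ENSMUST00000108813 by 0.46. The main Trim28 transcript ENSMUST00000005705 fell by 0.55 ± 0.11 (adjusted p = 0.00964) and the shorter ENSMUST00000209577 by 0.52. ENSMUST00000114446, ENSMUST00000108813 and ENSMUST00000209577 missed the threshold with the gene factors, at adjusted p of 0.0566, 0.0749 and 0.0624.

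The main Suv39h1 transcript, ENSMUST00000115637, fell by 0.68 ± 0.12 (adjusted p = 0.00806), and by 0.55 with the gene factors (adjusted p = 0.0122), the scale on which the gene fell by 0.35. It held 56.6% to 81.2% of the gene's counts in Dnmt3l libraries (median 71.1%) and 62.9% to 92.3% in controls (median 86.4%), ranges that overlap. Its counterpart in Trim28, ENSMUST00000005705, held 62.0% to 73.3% in Dnmt3l (median 64.9%) and 69.6% to 75.7% in controls (median 70.8%). None of the 3 Suv39h2 transcripts above 10% of the gene was called, and their shares ran from 0% to 76.1% over Dnmt3l libraries and from 0% to 57.3% over controls, so the shares varied widely within each genotype. Of the genes that rose, no transcript of Setdb1 or Ehmt1 was called with the transcript factors. With the gene factors, ENSMUST00000124638 of Setdb1 (0.33, adjusted p = 0.0358) and ENSMUST00000124002 of Ehmt2 (0.40, adjusted p = 0.0379) were called as higher. The other rises called with those factors were of minor Atrx transcripts.

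Atrx was not called as a gene, and its main transcript ENSMUST00000113573, with 77.6% of the counts, was not either (−0.12 ± 0.06, adjusted p = 0.223). The 3 Atrx transcripts that were called were minor ones, named here after their values were seen. ENSMUST00000198448 held 0% to 1.22% of the gene's counts in Dnmt3l and 2.25% to 4.90% in controls (log2 change −2.39, adjusted p = 0.0464). ENSMUST00000128968 held 1.87% to 3.80% in Dnmt3l and 0.713% to 2.32% in controls (0.85, adjusted p = 0.0488). ENSMUST00000198209 had 262 expected counts over the Dnmt3l libraries, at least 1 of which had none, and 0 in the 6 controls. It could pass the filter on low values only through Dnmt3l libraries. It could therefore enter the count of called transcripts only as a rise, and its call is no support for one. Expected counts of transcripts that share exons are estimates, and their error is not in these p-values.

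**Figure D4:**
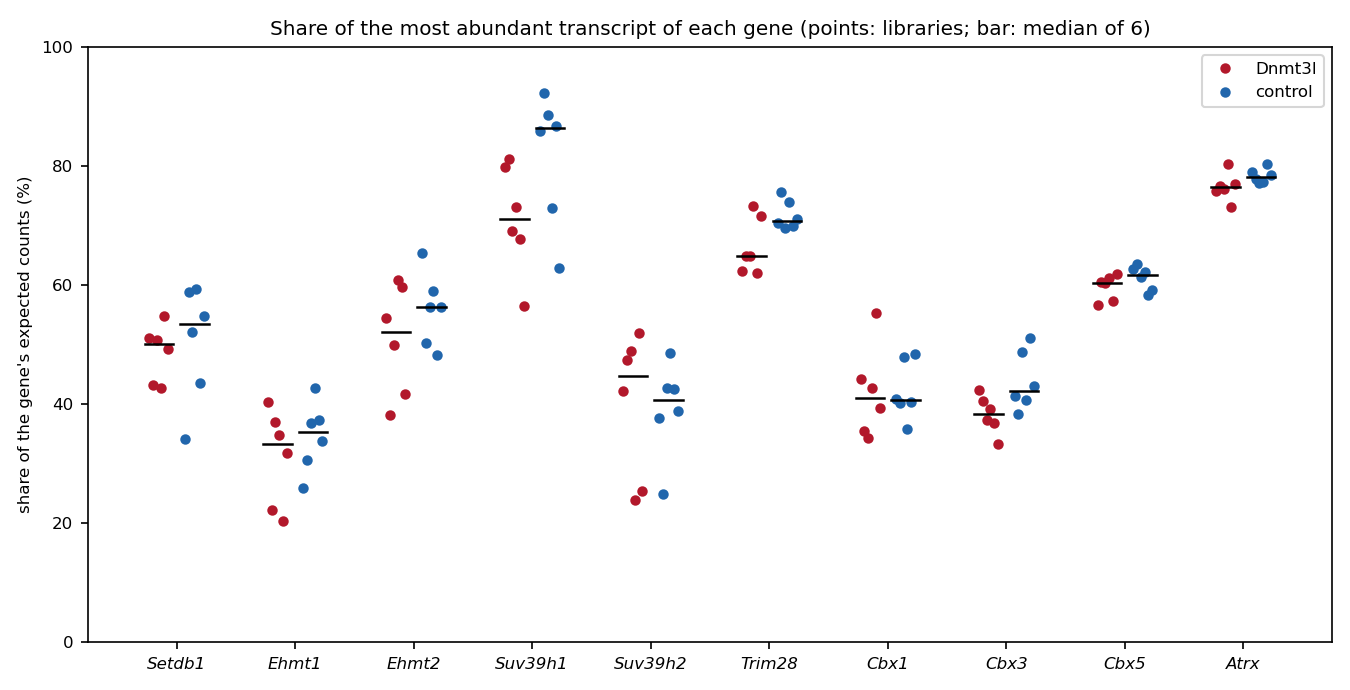
Share (%) of the expected counts of each gene that fell to its most abundant transcript, per library (points), with the median of 6 libraries as a bar, for Dnmt3l and control. For Suv39h1 the medians are 71.1% in Dnmt3l and 86.4% in control, and for Atrx 76.5% in Dnmt3l and 78.2% in control.

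Circular RNAs of the 10 genes were sparse. The deposited circular RNA table named 16 from 3 of them (8 from Ehmt1, 5 from Atrx and 3 from Setdb1), and none reached the 6 libraries set for a test, which 1989 of all 10673 circular RNAs did. The most often listed, from Ehmt1 exons at 24813527 to 24825067 on chromosome 2, had a score of 11 in DM2, 28 in DM3, 24 in DF1 and 18 in DF3, and of 11 in CM1; it was listed at 0 in the other 7 libraries.

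Of 52 other genes of the H3K9 and heterochromatin system, 50 were tested, and 7 were called as higher and 10 as lower in Dnmt3l, with a median log2 change of −0.03. That is 17 of 50, beside 51.5% of all genes. Without DF1 26 of the listed genes were called (10 higher, 16 lower), beside 63.1% of all genes. Without CM3, CF1 and CF2 11 were (3 higher, 8 lower), beside 28.4% of all genes. Among partners and relatives of the methyltransferases, 2 of 9 were higher and 1 was lower (median −0.15). Wiz, a zinc finger partner of the EHMT1 and EHMT2 dimer, was higher by 0.34 ± 0.08 (adjusted p = 0.00387), with 64.4 to 88.7 CPM in Dnmt3l and 56.1 to 67.4 CPM in controls. Mecom (0.77 ± 0.15, adjusted p = 0.00141), a PRDM family gene, was low, at 4.27 to 7.60 CPM in Dnmt3l and 2.99 to 4.58 CPM in controls. Atf7ip, which stabilises SETDB1 in the nucleus, fell by 0.31 ± 0.05 on the log2 scale (adjusted p = 0.00077), with 120.2 to 128 CPM in Dnmt3l and 144 to 171 CPM in controls. SETDB1's gene and that of its stabiliser thus differed in opposite directions. The fall of Atf7ip was not called with limma on log2(FPKM + 0.1) (adjusted p = 0.701).

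Of the 11 H3K9 demethylases 1 was higher and 3 were lower (median 0.02). Jmjd1c rose by 0.20 ± 0.06 (adjusted p = 0.0115), and missed the threshold without CM2 or CF2 (adjusted p up to 0.0536), without the 3 controls with liver transcripts (0.220) and with limma on log2(FPKM + 0.1) (0.1001). Kdm7a fell by 0.54 ± 0.10 (adjusted p = 0.0011), with 61.5 to 116 CPM in Dnmt3l and 100.1 to 131 CPM in controls, and Kdm1a, whose product removes methyl groups with CoREST, fell by 0.30 ± 0.07 (adjusted p = 0.0047). In the HUSH complex and MORC genes, which silence young retroelements with SETDB1, 0 of 6 were higher and 2 were lower (median −0.05). Those were Pphln1, the periphilin gene (−0.59 ± 0.14, adjusted p = 0.00311), and Mphosph8, the H3K9 methyl reader of HUSH (−0.26 ± 0.09, adjusted p = 0.0228). Mphosph8 was not called with limma on log2(FPKM + 0.1) (adjusted p = 0.926), nor without DM2, DF3 or CF3 (up to 0.0616).

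Among partners of HP1, TRIM28 and ATRX, 4 of 15 were higher and 4 were lower (median −0.06). Kmt5c, the H4K20 methyltransferase that HP1 recruits, rose by 0.48 ± 0.11 (adjusted p = 0.00372), and Zfp57, the KRAB zinc finger gene of imprinted loci that acts through TRIM28, rose by 0.41 ± 0.13 (adjusted p = 0.0223). Zfp57 missed the threshold without DM1, DF2, CM3 or CF2 (adjusted p up to 0.0720), without the 3 controls with liver transcripts (0.220) and with limma on log2(FPKM + 0.1) (0.258). Both genes for histone H3.3, which ATRX and DAXX deposit, were lower. H3f3a had 37.7 to 63.7 CPM in Dnmt3l and 61.8 to 71.8 CPM in controls (−0.59 ± 0.10, adjusted p = 0.000748), and H3f3b had 59.6 to 103 CPM in Dnmt3l and 95.3 to 110.2 CPM in controls (−0.56 ± 0.12, adjusted p = 0.00174). H3f3a has 2 named pseudogenes, so its level carries the same uncertainty as that of Cbx3. None of the 9 other repressor genes was called (median 0.01), a list that holds Dnmt1, Uhrf1, Smchd1 and Hells. At an unadjusted p below 0.05 Uhrf2, named after its value was seen, was the only one of them, with a log2 change of −0.18. The share of all genes at that unadjusted level was not counted.

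**Figure D5:**
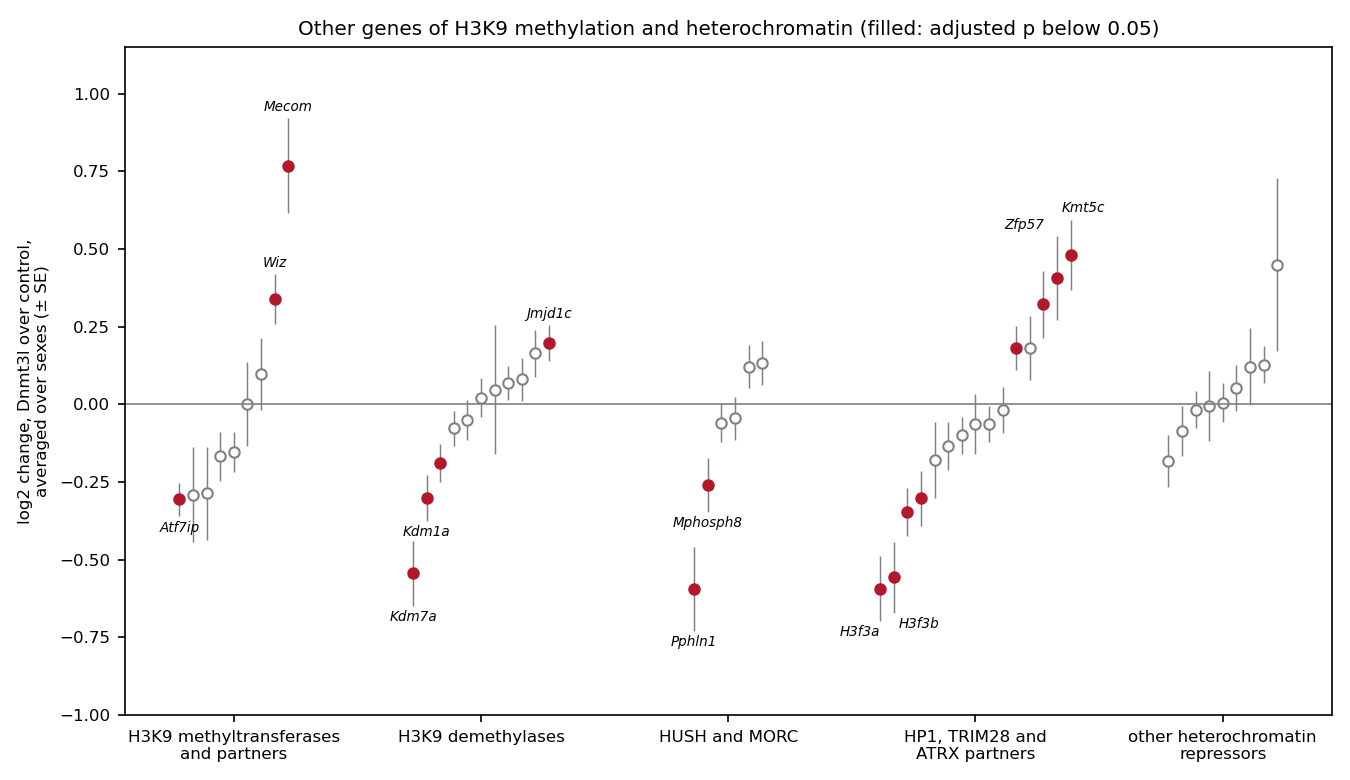
Log2 change, Dnmt3l over control averaged over sexes, with SE bars, of the 50 tested genes in 5 lists; filled points have an adjusted p below 0.05, and the genes named in the text are labelled. Mecom is highest among the called genes at 0.77, and Pphln1 and H3f3a lie lowest at −0.59.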

How the data were processed

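The 12 longer-RNA libraries were prepared, per the labels' protocols, from 1 μg of RNA with an integrity number above 6.5, depleted of ribosomal RNA and strand-marked with dUTP; the 12 small RNA libraries and the long non-coding table, in which no row names one of the 10 genes, were not used. Per the submitters' processing notes the tools named are HISAT2 2.0.1, HTSeq 0.6.1, DESeq2, cutadapt 1.9.1, bedtools 2.17.0 and bcl2fastq 2.17.1.14, and the build is GRCm38. The program behind the expected counts, the use of strand in counting and the circular RNA caller are not given in the sources used here. The authors deposited expected counts, which are estimates, and FPKM per transcript for 119414 transcripts. The circular RNA table was deposited as a whole-number score per library. The 1774 transcripts with no gene ID, 0.533% to 0.601% of the counts of a library, were left out. Per-sample columns that could not be assigned to a sample numbered 0.

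Expected counts were summed per gene and rounded. Genes with at least 0.5 FPKM in at least 3 of 12 libraries entered a quasi-likelihood fit in edgeR 4.0.16 (R 4.3.3) with TMM factors, 4 group means and 8 residual degrees of freedom; tests were two-sided, with Benjamini-Hochberg adjustment over all genes and a threshold of 0.05. Contrasts were Dnmt3l over control averaged over sexes, in males and in females, the male minus the female effect, and control female over male. Transcripts were fitted likewise. Alternatives were DESeq2 size factors, upper-quartile scaling, no filter and a filter at 2 FPKM, DESeq2 1.42.0, limma 3.58.1 on log2(FPKM + 0.1) and log2(FPKM + 1), the replicate number as a block, removal of mitochondrial genes, and leaving out libraries. Gene and transcript fits averaged over sexes were run on simulated data in which few features changed. That run does not cover data with as many called genes as here, nor the other contrasts. The 10 genes, the other lists, the marker lists and the tests were chosen with earlier results of these data known. Named were all 10 genes, up to 2 called rises and 2 called falls per other list by log2 change, transcripts with at least 10% of the counts of their gene, and the 3 genes of most similar pattern for the largest rise and the largest fall. Genes whose coordinates overlap one of the 10 were added after the data had been seen, and Dnmt3l was read as the check of the genotype labels.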

Additional observations from a re-analysis of the deposited data

Results flagged for a closer look

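For Cbx1, the gene of HP1 beta, all 3 Dnmt3l males lay below and all 3 Dnmt3l females above the mean of the controls of their sex. Cbx1 had 14.6, 14.9 and 13.3 CPM in Dnmt3l males, against 16.7, 16.1 and 19.1 CPM in control males. In females it had 22.4, 17.7 and 16.9 CPM in Dnmt3l, against 19.1, 15.4 and 16.2 CPM in controls. The male effect minus the female effect was −0.45 ± 0.19 on the log2 scale in edgeR's quasi-likelihood test (unadjusted p = 0.0331, adjusted p = 0.679), so the difference between the sexes did not pass over all genes. Neither sex alone passed in edgeR (log2 change −0.28, adjusted p = 0.108 in males, and 0.17, adjusted p = 0.381 in females). Limma on log2(FPKM + 0.1) called the male fall (−0.41, adjusted p = 0.0470), beside 33.8% of all genes, and not the female change (0.06, adjusted p = 0.814). The female side rested on DF1, the highest of the 12 libraries: against the mean of control females it lay at 0.41 on the log2 scale, DF2 at 0.07 and DF3 at 0.0068. Without DF1 the female change was 0.02 (adjusted p = 0.889), and the male change was called (−0.30, adjusted p = 0.0280), beside 53.6% of all genes.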

How the results depend on the processing

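The falls of Suv39h1, Suv39h2, Cbx3 and Cbx5, averaged over sexes, were called under all 10 other settings and in all 12 fits without 1 library; that of Trim28 missed the threshold with limma on both FPKM scales. The count of the 10 genes called ran from 5 to 8 under other settings and in fits without 1 library, against 7. Over all genes, 4407 to 8507 were called under other settings and 7196 to 9923 without 1 library, against 8136. Atrx, not called, turned to −0.0113 with limma on log2(FPKM + 0.1), to −0.0112 on log2(FPKM + 1) and to −0.0104 without CM3, CF1 and CF2. In females the count was 2 with DESeq2 (beside 23.6% of the 13642 genes with an adjusted p), against 1. It was 0 with limma on log2(FPKM + 0.1) (2.15% of all genes), 0 on log2(FPKM + 1) (2.38%) and 0 without CM3, CF1 and CF2 (0.0129%). In fits without 1 library the count in females ran from 0 to 5, beside 0.0447% to 47.4% of all genes. Without CM3, CF1 and CF2, 4407 genes were called (28.4% of those tested, against 8136 or 51.5%), in a fit with fewer controls. Of the other lists 11 genes were then called, against 17. The count in those lists ran from 14 to 26 without 1 library, beside 7196 to 9923 of all genes. With limma on log2(FPKM + 0.1), 2329 genes were called as higher and 4282 as lower. Of the called genes 35.2% were higher, against 48.9% with edgeR. Of the 10 genes 5 were called, beside 41.9% of all genes tested. Called transcripts of the 10 genes ran from 5 to 13 without 1 library, against 10, and the share of all transcripts called in those fits was not counted. The replicate numbers did not pair the samples (correlation of deviations −0.12 to 0.04 for 6 same-number pairs, −0.08 to 0.17 for 12 others). With the replicate block, 6 transcripts were called, 0 higher and 6 lower, and the share of all transcripts called in that fit was not counted. The 3 Atrx transcripts (adjusted p = 0.0623 to 0.0768) and ENSMUST00000108813, with 33.6% of the counts of Cbx5 (adjusted p = 0.0613), were no longer called. Nor were Ehmt1 averaged over sexes (adjusted p = 0.0659) and the male rises of Setdb1 and Ehmt2. The cause of these differences was not tested. Tests of circular and long non-coding RNAs were not run, since no feature of the 10 genes qualified. Depth limits Suv39h2 most, at 2.30 to 6.28 CPM.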
